A study of Mus musculus with 4 samples.

Results

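The 10 genes described here are early activation genes of the Nr4a, Egr and AP-1 families: *Nr4a1*, *Nr4a2*, *Nr4a3*, *Egr1*, *Egr2*, *Egr3*, *Fos*, *Fosb*, *Junb* and *Atf3*. They were chosen by symbol, and all 10 were found, each under the same Ensembl identifier, among the 32285 genes measured in CD45+ cells and the 31053 measured in sorted T cells. Wild-type C57BL/6 mice carried subcutaneous tumors of B16-ZsG, a single clone derived from the B16-F10 melanoma line that makes the fluorescent protein ZsGreen (ZsG) under doxycycline, which all mice received in the drinking water. Tumors were taken on day 8 and digested at 37 °C for 30 min, and immune cells were sorted by their own ZsG fluorescence, which had come from tumor cells. There were 4 libraries of single cells: CD45+ tumor-infiltrating cells, ZsG- and ZsG+, and CD45+TCRb+ T cells, ZsG- and ZsG+. The labels give neither the age of the mice nor how many were pooled.

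Each group was 1 library with no replicate, so no value below carries a spread between mice or a p-value, and the 95% intervals given cover counting error only. In the T cell sort, a file name puts ZsG+ cells under the first barcode suffix (2396 barcodes), while the library names number them the other way. The first order was used, and with the other one every ZsG+ to ZsG- ratio of the T cell sort changes sign. With the order used, cells like regulatory T cells were 4.25% of kept ZsG- and 13.3% of kept ZsG+ cells. Naive-like cells were 13.05% and 5%. The paper reports regulatory T cells as enriched and naive-like T cells as underrepresented in its ZsG+ sample. After filtering, 4698 ZsG- and 4123 ZsG+ cells of the CD45 sort were kept, with a median of 5770 and 9928 UMIs (unique molecules counted), and 659 and 780 cells of the T cell sort, with a median of 5799 and 6501. Both CD45 libraries shared 6 barcodes and both T cell libraries 1. Clusters were named from marker genes. The labels call all 4 samples lymphocytes, but most ZsG+ cells of the CD45 sort carried myeloid markers. In that sort the ZsG- and ZsG+ libraries held 1474 and 116 T cells, 2504 and 23 NK cells or other innate lymphoid cells (NK/ILC), 254 and 2838 monocytes and macrophages, and 351 and 642 dendritic cells (DCs). The T cell sort held 650 and 720 T cells.

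Immediate early genes are transcribed within minutes of a stimulus without new protein synthesis. Fos and FosB pair with Jun proteins such as JunB to form the AP-1 transcription factor, ATF3 is a related factor of the stress response, the EGR proteins are zinc-finger factors, and the NR4A proteins are orphan nuclear receptors. In T cells *Nr4a* and *Egr* genes are read as reporters of antigen receptor signaling, whereas EGR2, EGR3 and the NR4A factors also take part in restraining T cells and in exhaustion. The same genes respond to Toll-like receptor ligands in myeloid cells and to warm enzymatic digestion of tissue, which every library here went through.

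The promoters of 5 members are shown because these genes are switched on through short elements close to the start site. RefSeq (GRCm38.p6) promoters were found for 8 of the 10 genes. The 250 bases before the start are written 5′ to 3′ along the gene, with capitals marking the half-site of the cAMP response element, TGACG or its complement CGTCA:
Fos: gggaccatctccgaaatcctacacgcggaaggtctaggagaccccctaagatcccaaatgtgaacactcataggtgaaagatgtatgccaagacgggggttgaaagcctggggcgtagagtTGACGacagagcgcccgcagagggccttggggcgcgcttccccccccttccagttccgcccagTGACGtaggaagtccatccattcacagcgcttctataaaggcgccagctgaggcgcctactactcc
Fosb: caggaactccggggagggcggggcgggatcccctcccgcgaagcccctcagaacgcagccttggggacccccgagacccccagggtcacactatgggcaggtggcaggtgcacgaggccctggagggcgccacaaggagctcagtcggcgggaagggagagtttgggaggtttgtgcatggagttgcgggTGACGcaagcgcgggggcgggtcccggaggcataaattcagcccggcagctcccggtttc
Junb: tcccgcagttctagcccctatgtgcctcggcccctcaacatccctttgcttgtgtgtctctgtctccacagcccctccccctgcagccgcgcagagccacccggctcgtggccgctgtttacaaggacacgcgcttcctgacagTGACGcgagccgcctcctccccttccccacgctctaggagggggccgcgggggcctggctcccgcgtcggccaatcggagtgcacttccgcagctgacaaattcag
Nr4a1: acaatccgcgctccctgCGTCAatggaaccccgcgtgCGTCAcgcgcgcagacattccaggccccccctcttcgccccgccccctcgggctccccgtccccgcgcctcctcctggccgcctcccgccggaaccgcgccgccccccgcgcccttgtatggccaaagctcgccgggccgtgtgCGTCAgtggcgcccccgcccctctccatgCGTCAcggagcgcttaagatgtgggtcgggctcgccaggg
Nr4a2: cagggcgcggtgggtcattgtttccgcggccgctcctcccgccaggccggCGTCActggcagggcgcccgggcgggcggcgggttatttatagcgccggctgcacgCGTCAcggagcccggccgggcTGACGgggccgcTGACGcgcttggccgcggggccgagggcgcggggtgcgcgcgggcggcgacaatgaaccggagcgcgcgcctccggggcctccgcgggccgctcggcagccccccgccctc
The stretch of *Fos* lies at chr12:85473640-85473889 on the plus strand, that of *Fosb* at chr7:19310046-19310295 on the minus strand and that of *Junb* at chr8:84978749-84978998 on the minus strand. That of *Nr4a1* lies at chr15:101266596-101266845 on the plus strand, in an intron of the longer GENCODE gene model, and that of *Nr4a2* at chr2:57124004-57124253 on the minus strand. The *Fos*, *Junb* and *Nr4a2* stretches overlap no annotated gene, and the *Fosb* stretch takes in 6 exon bases of *Fosb* itself.

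*Nr4a1* and *Nr4a2* each held 4 half-sites in these stretches, *Fos* 2, and *Fosb* and *Junb* 1 each. Over the full window of 300 bases, 250 before and 50 after the start, 7 of the 8 members with a promoter had a half-site in their first listed promoter, *Egr2* being the exception. This letter word was chosen after the sequences had been seen, and 21.0% of 27025 mouse promoters of that length hold it, or 31.9% of the 9476 with a GC content of at least 58.7%. The whole element TGACGTCA was in 1.88% of all promoters, the AP-1 site TGANTCA in 7.93%, the NBRE site of NR4A factors (AAAGGTCA) in 1.46%, the EGR site GCGTGGGCG in 0.625% and the CArG box in 1.57%, all searched on both strands. None of these 5 was in the window of a member's first promoter. Bases further upstream were not searched, and *Egr1* and *Egr3* had no promoter to search. A later listed promoter of *Egr2*, with a window from chr10:67537619, held 2 half-sites and 1 CArG box. A match is a description of the letters and no evidence that a factor binds.

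Levels are ordered here over the 15 combinations of class and gate of the CD45 sort that had at least 20 cells, B cells, mixed and unnamed clusters left out. They are given as UMIs per 1000000 UMIs of the class (CPM), and the share of cells with a UMI after each cell was thinned to 2000 UMIs. Of the 10 genes, 7 had their highest level in a monocyte or macrophage class, and the other 3 peaked elsewhere: *Nr4a2* in T cells, *Nr4a3* in Ccr7+ DCs and *Egr3* in DC1.

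*Fos*, the inducible partner in AP-1, stood at 3725 CPM in ZsG- and 3064 CPM in ZsG+ non-classical monocytes. In monocytes it stood at 2479 CPM (ZsG-) and 3115 CPM (ZsG+), and in ZsG+ macrophages at 2348 CPM. The ZsG- library held only 19 macrophages, which were not compared. DCs were lower and unequal: DC2 had 1566 and 2030 CPM, DC1 749 and 1219 CPM, ZsG- plasmacytoid DCs (pDC) 473 CPM and ZsG+ Ccr7+ DCs 336 CPM of *Fos*. Lymphocytes came last, with 125 and 225 CPM in NK/ILC and 68.3 and 108 CPM in T cells of the CD45 sort. In thinned cells, *Fos* was seen in 82.5% and 94.7% of monocytes but in 17.3% and 25.9% of these T cells.

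*Fosb*, which encodes another Fos protein, was highest in ZsG+ non-classical monocytes (438 CPM, interval 335 to 562) and ZsG+ DC2 (340 CPM, 326 to 354), whose intervals overlap. ZsG- T cells were lowest in the CD45 sort at 42.9 CPM. *Junb*, a Jun partner that lymphocytes also make, was at 3561 CPM in ZsG- and 3000 CPM in ZsG+ non-classical monocytes, and 826 CPM in ZsG- and 642 CPM in ZsG+ T cells. It had a UMI in 76.0% and 69.0% of those T cells after thinning, so that *Junb* was present in most cells of every class but pDC in this sort, where the share was 32.4%. *Atf3* divided the lineages most sharply. It ranged from 529 to 1134 CPM over monocytes, macrophages and DC2 and from 6.66 to 14.1 CPM over T cells and NK/ILC of the CD45 sort.

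*Egr1* followed the same order, from 1707 CPM in ZsG- non-classical monocytes down to 25.7 CPM in ZsG- T cells. *Egr2* led in ZsG+ monocytes (209.5 CPM, 201 to 218) and ZsG+ macrophages (186 CPM, 180 to 193), whose intervals did not overlap, and stood at 1.85 CPM in ZsG- T cells of the CD45 sort. *Egr3* was instead a gene of DC1, the cross-presenting DCs: 192 CPM in ZsG+ and 95.4 CPM in ZsG- DC1, against 38.4 CPM in ZsG+ and 36.1 CPM in ZsG- DC2 and 17.8 CPM or less in monocytes, macrophages, pDC, T cells and NK/ILC.

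The receptors of the *Nr4a* family parted from one another. *Nr4a1* (Nur77) was a gene of non-classical monocytes, whose formation is known to depend on it: 1389 CPM in ZsG- cells, followed by 738 CPM in ZsG- monocytes, 617 CPM in ZsG+ non-classical monocytes and 570 CPM in ZsG- DC2. *Nr4a2* had its highest levels in ZsG+ T cells (252 CPM, 230 to 275), ZsG- NK/ILC (245 CPM, 237 to 253) and ZsG- T cells (238 CPM, 231 to 245), which could not be ordered at this depth. In ZsG+ macrophages *Nr4a2* was at 66.1 CPM. *Nr4a3* was at 439 CPM (380 to 504) in Ccr7+ DCs, the mature migratory DCs, with a UMI in 59.2% of thinned cells. The next class, ZsG+ NK/ILC, had 84.4 CPM of *Nr4a3* with an interval that reached up to 133, so that the intervals of the first and second class were far apart.

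Among ZsG+ myeloid cells *Atf3* and *Nr4a1* varied between clusters. *Atf3* stood at 1457 CPM (1409 to 1507) in macrophages led by *Mmp12* and *Rhov*, at 682 CPM in those led by *Mmp13* and *Slc6a8* and at 623 CPM in those led by *Ms4a7* and *Ccl8*. *Nr4a1* ranged only from 187 to 211 CPM over the same macrophage clusters. In monocytes *Nr4a1* stood at 579 CPM in the cluster led by *Dmkn* and *Chil3* and at 333 CPM in that led by *Ly6i* and *Rsad2*. *Fos* was at 3202 and 3072 CPM in these monocyte clusters, and between 2189 and 2394 CPM in the macrophage clusters.

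**Figure D1:**
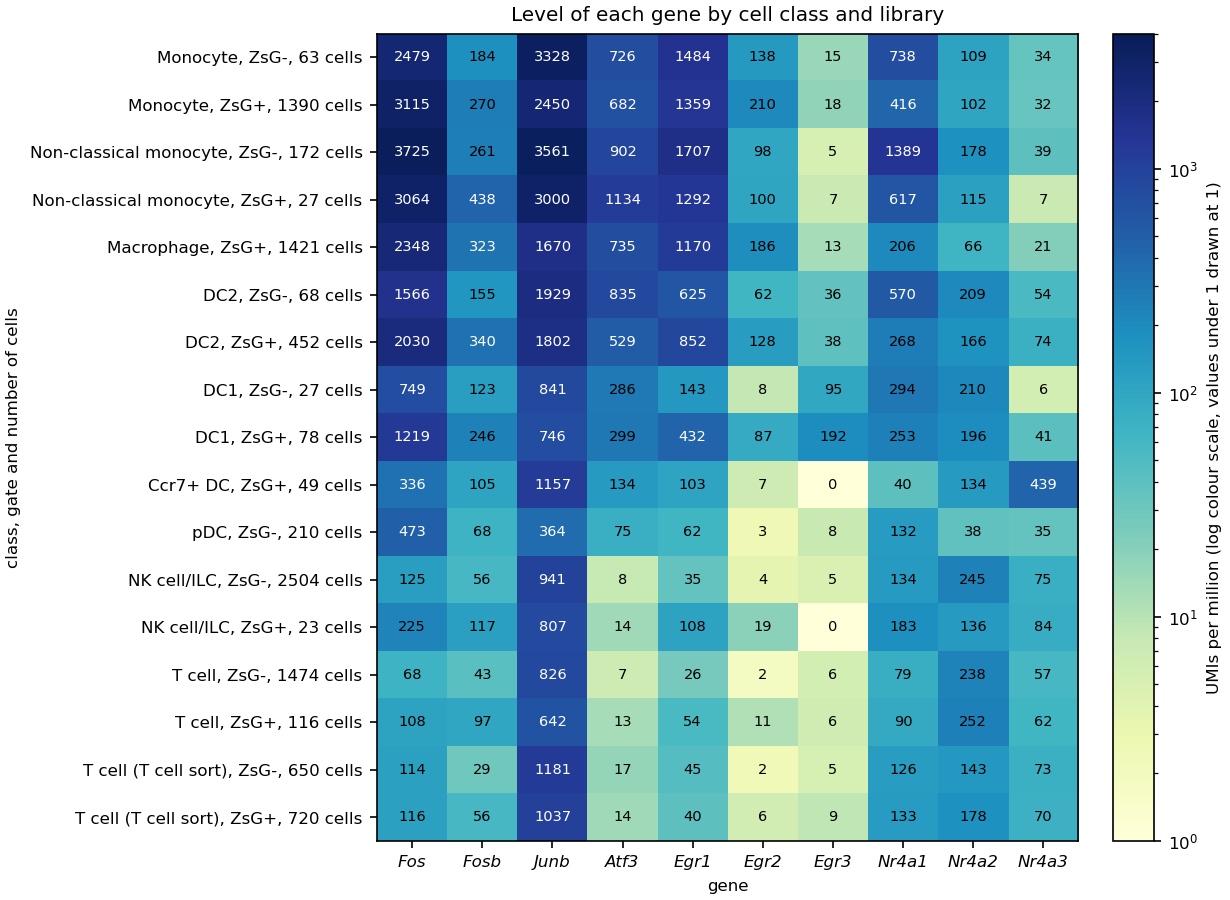
Level of each gene (columns) in each class and gate with at least 20 cells (rows), in CPM, rounded to whole numbers and coloured on a log scale. The monocyte, macrophage and DC2 rows are dark for *Fos*, *Junb*, *Atf3* and *Egr1*, *Nr4a3* is darkest in Ccr7+ DCs, and *Egr3* is darkest in DC1.

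A single myeloid cell usually carried several of the genes. After thinning to 2000 UMIs, 3 or more of the 10 were seen in 96.8% of ZsG- and 95.6% of ZsG+ monocytes, 99.4% and 85.2% of non-classical monocytes and 88.3% of ZsG+ macrophages. DC2 (88.2% and 88.9%) were close to macrophages, DC1 (63.0% and 66.7%) and Ccr7+ DCs (49.0%) lower, and pDC at 15.2%. Among T cells of the CD45 sort, 17.3% of ZsG- (15.4 to 19.4) and 29.3% of ZsG+ cells (21.2 to 38.5) had 3 or more. These intervals cover counting error within 1 library a gate. A UMI of the macrophage genes *C1qa*, *C1qb* or *C1qc* was seen in 3.73% and 75.0% of these T cells before thinning. Its part in the shares was not tested. In the T cell sort 20.7% and 22.4% of T cells had 3 or more of the 10 genes, with intervals that overlapped. Of the 58 ZsG+ cells named macrophages left in the T cell sort after thinning, 65.5% (51.9 to 77.5) had 3 or more. These cells also held enough CD3 UMIs to be kept as T cells. Before thinning, 56.7% of them were in the top 5% of doublet scores, against 0.42% of ZsG+ T cells, and whether they were doublets was not tested.

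**Figure D2:**
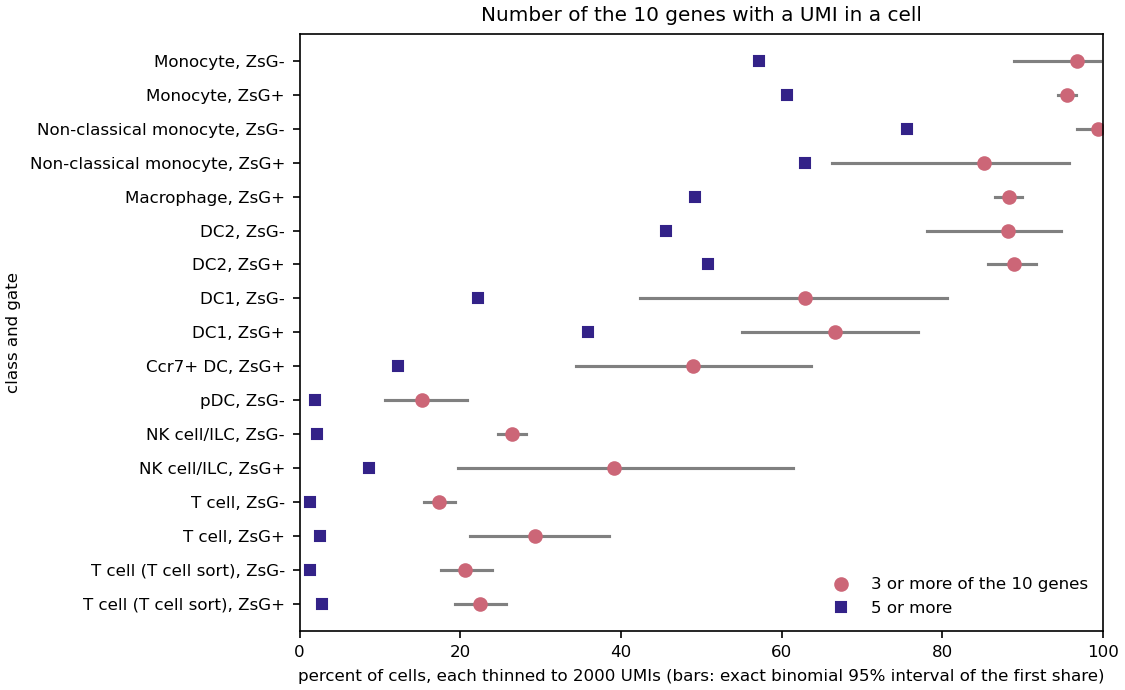
Percent of cells in which 3 or more (circles, bars are exact binomial 95% intervals) or 5 or more (squares) of the 10 genes had a UMI after thinning each cell to 2000 UMIs, by class and gate. Monocytes, macrophages and DC2 of the CD45 sort lie at 85.2% to 99.4% for 3 or more genes, and T cells of both sorts at 17.3% to 29.3%.

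Within single classes some pairs of the genes were seen in the same cells more often than others. In ZsG+ macrophages, 42.8% of cells with a *Fos* UMI also had a *Fosb* UMI (40.1 to 45.6), against 13.4% of cells without one (8.25 to 20.1). In ZsG+ T cells of the T cell sort the shares were 25.8% (18.3 to 34.6) and 7.19% (5.23 to 9.60). Pairs were tallied over 7 chosen combinations of class and library. Others with enough cells, such as ZsG+ T cells of the CD45 sort, were left out. *Fosb* was the more frequent among *Fos*-positive cells in all 7, and the intervals were apart in all 7. *Junb* given *Fos* had intervals apart in 6 of 7, *Nr4a2* given *Nr4a1* in 5 of 7, and *Junb* given *Nr4a1* and given *Fosb* in 4 of 7. These were 5 of the 45 pairs. Another 9 pairs had intervals apart in 2 or 3 combinations and 15 in 1, while 16 pairs, such as *Nr4a1* and *Atf3* or *Nr4a3* and *Fos*, had them apart in none. No pair had intervals apart in the opposite direction in these combinations, and pairs given *Egr2* or *Egr3* could be read in only 3 of them.

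To compare the gates, ZsG+ was set against ZsG- within each class. According to the paper, the CD45 sort took bright ZsG+ cells, and most lymphocytes that carried ZsG were sorted as ZsG-. Ratios of T cells and NK/ILC in that sort thus set brighter against dimmer cells, rather than uptake against none. A gene was tested where both libraries together held at least 20 UMIs, and it is called past 2-fold at a log2 ratio of at least 1 or at most -1. All 10 members were tested in each of the 5 classes, which gave 50 ratios. Of these, 13 were past 2-fold higher and 2 lower, where 8.28% and 8.75% of all 53516 ratios in the 5 classes were. Those shares differ widely between classes and are given with each class.

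In T cells of the T cell sort, *Egr2* was the one member past 2-fold. It stood at 2.34 CPM in ZsG- and 5.86 CPM in ZsG+ T cells (11 and 38 UMIs), a log2 ratio of 1.33 (0.33 to 2.44), so that it was among the 4.04% of 9945 tested genes that were past 2-fold higher. No member was among the 1.84% that were past 2-fold lower. *Fosb* lay just inside 2-fold, from 28.9 to 56.3 CPM, with a log2 ratio of 0.96 (0.67 to 1.26). *Egr3*, from 5.31 to 8.79 CPM, had a ratio of 0.73 (0.02 to 1.47) and *Nr4a2*, from 143 to 178 CPM, one of 0.31 (0.17 to 0.45). The remaining *Nr4a* and *Egr* genes were near equality: *Nr4a1* stood at 126 and 133 CPM (log2 ratio 0.08, -0.07 to 0.23), *Nr4a3* at 73.1 and 69.7 CPM, and *Egr1* at 44.6 and 40.0 CPM. *Fos* was at 114 and 116 CPM, *Junb* at 1181 and 1037 CPM, and *Atf3* at 16.6 and 14.2 CPM. The median ratio of the 10 members was 0.06, beside 0.04 over all genes tested. The makeup of these T cells differed between gates. Regulatory (Treg-like) cells were 28 of 650 ZsG- and 104 of 720 ZsG+ cells, and naive-like cells 86 and 39.

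In T cells of the CD45 sort, 3 members were past 2-fold higher, where 2.87% of 10956 genes were, and none was lower, where 6.35% were. *Egr2* stood at 1.85 and 10.8 CPM (36 and 21 UMIs), a log2 ratio of 2.55 (1.69 to 3.36). *Fosb* stood at 42.9 and 96.9 CPM (1.18, 0.94 to 1.41), and *Egr1* at 25.7 and 54.4 CPM (1.08, 0.76 to 1.38). *Atf3*, at 6.66 and 12.8 CPM, had a ratio of 0.94 (0.26 to 1.57), and *Fos*, at 68.3 and 108 CPM, one of 0.66 (0.44 to 0.87). The *Nr4a* genes differed little: *Nr4a1* was at 79.3 and 90.3 CPM, *Nr4a2* at 238 and 252 CPM and *Nr4a3* at 56.8 and 61.5 CPM, with intervals that all included equality. *Junb* went the other way, from 826 to 642 CPM (-0.36, -0.45 to -0.28), and *Egr3* was at 5.59 and 6.15 CPM. When each cell was thinned to 2000 UMIs, none of these 3 stayed past 2-fold: *Egr2* fell below 20 UMIs and had no ratio, *Fosb* had a ratio of 0.78 and *Egr1* one of 0.98. *Atf3*, at 1.83, was then the one member past 2-fold. Makeup differed here too: the cluster led by *Bcat1* and *Ccl1* held 196 of 1474 ZsG- and 40 of 116 ZsG+ T cells. That led by *Klra1* and *Klrb1c* held 368 and 3.

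NK/ILC rested on 23 ZsG+ cells, of which 9 were in the cluster led by *Nusap1* and *Hist1h1b*, against 88 of 2504 ZsG- cells. In NK/ILC 3 members were past 2-fold higher, where 10.8% of 10608 genes were, and none lower, where 8.46% were. *Egr1* was at 34.6 CPM in ZsG- and 108 CPM in ZsG+ cells (23 UMIs in ZsG+, log2 ratio 1.64, 0.97 to 2.24), *Fosb* at 56.5 and 117 CPM (1.05, 0.42 to 1.63), and *Egr2* at 3.53 and 18.8 CPM (4 UMIs in ZsG+, 2.41, 0.48 to 3.85). *Fos* stood at 125 and 225 CPM (0.85, 0.41 to 1.27) and *Nr4a2* at 245 and 136 CPM (-0.85, -1.43 to -0.33). The intervals of *Nr4a1*, *Nr4a3* and *Atf3* included equality, *Junb* was at 941 and 807 CPM, and *Egr3* had 73 UMIs in ZsG- cells and none in ZsG+ cells, a depth at which 3 counts would be 14.1 CPM.

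DCs had the most members past 2-fold: 6 higher, where 10.7% of 10677 genes were, and none lower, where 13.9% were. *Egr2* stood at 15.5 CPM in ZsG- and 110 CPM in ZsG+ DCs, a log2 ratio of 2.82 (2.43 to 3.25), *Egr1* at 187 and 727 CPM (1.96, 1.84 to 2.08), and *Egr3* at 21.9 and 54.3 CPM (1.31, 0.96 to 1.68). *Fosb* was at 90.1 and 304 CPM (1.75, 1.59 to 1.93), *Fos* at 728 and 1783 CPM (1.29, 1.23 to 1.35) and *Junb* at 790 and 1580 CPM (1.00, 0.94 to 1.06). The median ratio of the members was 1.15, beside -0.11 over all genes tested. The makeup of the DCs differed between gates, however: 210 of 351 ZsG- but 17 of 642 ZsG+ cells were pDC. Among the named DC classes and gates with at least 20 cells, ZsG- pDC had the lowest levels of *Egr1*, *Egr2*, *Fosb*, *Junb*, *Atf3* and *Nr4a2*, while *Fos*, *Nr4a1* and *Egr3* were lowest in ZsG+ Ccr7+ DCs and *Nr4a3* in ZsG- DC1. Without pDC, 3 members remained past 2-fold, *Egr1* at 1.06, *Egr2* at 1.77 and *Fosb* at 1.36. With the 3 shared DC clusters weighted equally, *Fosb* at 1.10 was the one member past 2-fold, and *Junb* had a ratio of -0.032. The shared clusters were DC1, the DC2 led by *Cd209a* and *Lmo1*, and an unnamed cluster led by *Apod* and *Cyp7b1*. The equal weighting thus left out pDC, Ccr7+ DCs and all but 28 of 452 ZsG+ DC2.

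In monocytes and macrophages 7 of the 10 ratios were below 0. No member was past 2-fold higher, where 12.6% of 11330 genes were, and 2 were lower, where 12.5% were. *Nr4a1* stood at 1140 CPM in ZsG- and 289 CPM in ZsG+ cells, a log2 ratio of -1.98 (-2.04 to -1.91), and *Nr4a2* at 163 and 80.4 CPM (-1.02, -1.18 to -0.86). *Junb* was at 3356 and 1979 CPM (-0.76), *Nr4a3* at 41.9 and 25.4 CPM (-0.72), *Egr1* at 1610 and 1244 CPM (-0.37), *Fos* at 3230 and 2649 CPM (-0.29) and *Atf3* at 825 and 716 CPM (-0.20). The exceptions were *Egr2*, at 103 and 195 CPM (0.92, 0.73 to 1.11), *Egr3*, at 9.01 and 14.7 CPM (0.71, 0.06 to 1.43), and *Fosb*, at 229 and 303 CPM (0.40, 0.27 to 0.53). Makeup moved with these values too, since 172 of 254 ZsG- cells but 27 of 2838 ZsG+ cells were non-classical monocytes and the ZsG+ library held 1421 macrophages. Without non-classical monocytes *Nr4a1* had a ratio of -1.34, and with the shared clusters weighted equally one of -0.83. *Nr4a2* was no longer past 2-fold in either case. The shared clusters were the monocytes led by *Dmkn* and *Chil3* and the non-classical monocytes, so the equal weighting left out all macrophages.

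**Figure D3:**
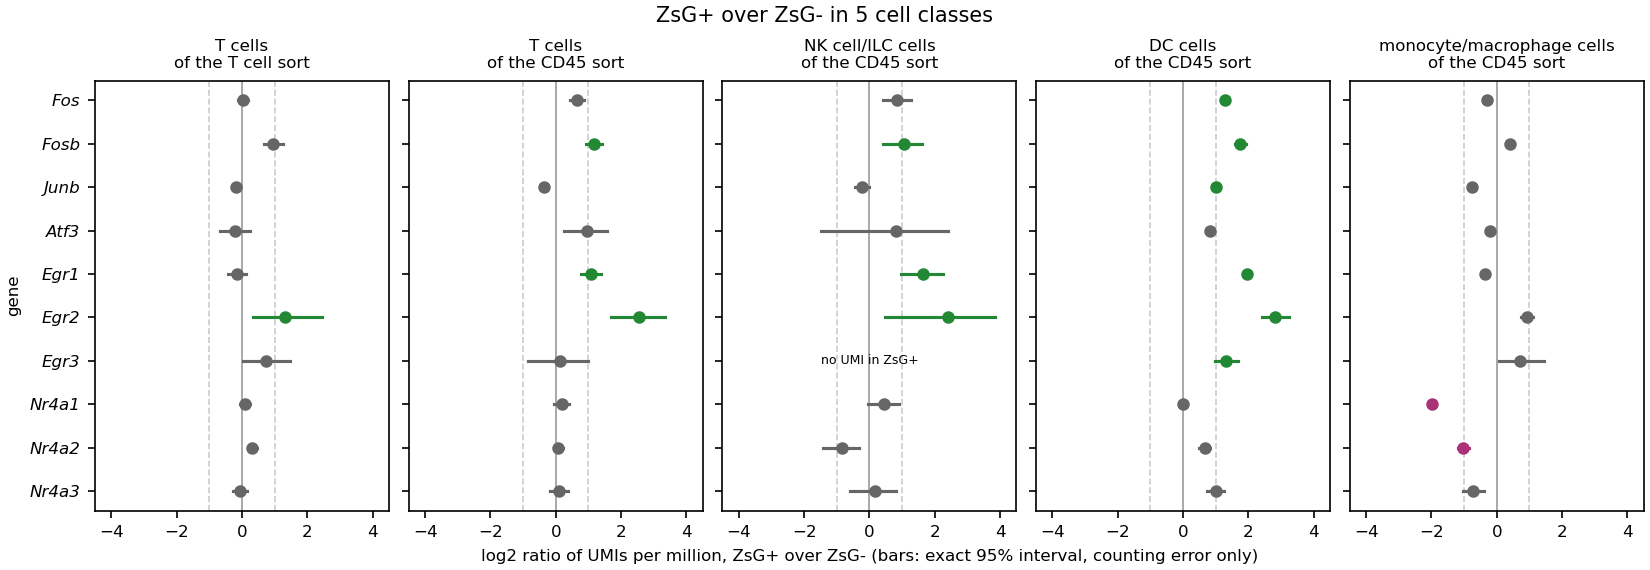
Log2 ratio of CPM, ZsG+ over ZsG-, for each gene (rows) in 5 cell classes (panels); bars are exact 95% intervals for counting error and dashed lines mark 2-fold. *Egr2* and *Fosb* lie right of 0 in all 5 panels, and *Nr4a1* and *Nr4a2* lie left of the dashed line in monocytes and macrophages.

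The single classes inside these groups were compared next. In monocytes no member was past 2-fold, where 11.5% of 9734 genes were higher and 6.67% lower. *Nr4a1* was at 738 CPM in ZsG- and 416 CPM in ZsG+ monocytes (-0.83). Makeup still differed within this class. All 63 ZsG- monocytes were in the cluster led by *Dmkn* and *Chil3*. Of 1390 ZsG+ monocytes, 811 were in that led by *Ly6i* and *Rsad2*, where *Nr4a1* was lower, as given above. Non-classical monocytes kept the difference in *Nr4a1*, from 1389 to 617 CPM, a log2 ratio of -1.17 (-1.50 to -0.86), with 11.5% of genes past 2-fold lower. *Nr4a3* was also past 2-fold lower there, but on 54 UMIs in ZsG- and 1 UMI in ZsG+ cells (-2.44, -7.77 to 0.10).

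In DC2, *Egr2* (61.5 and 128 CPM, log2 ratio 1.06) and *Fosb* (155 and 340 CPM, 1.13) were past 2-fold higher, with 12.8% of genes so, and *Nr4a1* (570 and 268 CPM, -1.09) was lower, with 6.22% of genes so. Makeup differed, since 56 of 68 ZsG- but 28 of 452 ZsG+ DC2 were in the cluster led by *Cd209a* and *Lmo1*. Within it 1 member was past 2-fold higher, with 4.21% of genes so. There *Egr2* was the 1 lower (-1.22, with an interval that included equality), with 7.88% of genes so. In DC1, 4 members were past 2-fold higher, with 9.16% of genes so. They were *Egr2* (8.41 and 86.6 CPM, 3 and 103 UMIs, log2 ratio 3.36, 1.78 to 5.67), *Nr4a3* (5.61 and 41.2 CPM, 2 and 49 UMIs, 2.88, 0.95 to 5.96), *Egr1* (143 and 432 CPM, 1.60) and *Egr3* (95.4 and 192 CPM, 1.01, 0.48 to 1.57). A small DC cluster led by *Apod* and *Cyp7b1*, which took no class name, had 1 UMI of *Egr1* in 34 ZsG- cells and 79 UMIs in 46 ZsG+ cells (5.92, 3.40 to 11.2). *Atf3* was at 49.0 and 120 CPM in it (1.30), and 5.01% of its genes were past 2-fold higher.

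The T cell sort was then divided into its clusters, of which 9 had at least 20 T cells in each library. Of 90 ratios, 64 could be tested, and 6 were past 2-fold higher and 5 lower, where 4.18% and 3.47% of all ratios in these clusters were. *Egr2* and *Egr3* had too few UMIs to be tested in any cluster.

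*Fosb* accounted for 5 of the 6 higher calls, and 7 of its 8 tested ratios were above 0, with a median of 1.26. In the cluster led by *Klra1* and *Klra7* it stood at 14.9 and 69.5 CPM (2.22, 1.24 to 3.30). In the cluster led by *Il2* and *Ifng*, named CD8-Tex-like from markers of exhausted cells, it stood at 10.8 and 41.9 CPM (1.95, 0.48 to 3.90). In the cluster led by *Trim30c* and *Slfn5* it stood at 30.4 and 100.2 CPM (1.72), in the Th1-like cluster at 52.7 and 148 CPM (1.48), and in the CD8-EM-like (effector memory) cluster at 37.5 and 77.0 CPM (1.04). The sixth higher call was *Nr4a2* in the *Il2* and *Ifng* cluster, from 130 to 274 CPM (1.08, 0.63 to 1.55), where 5.27% of genes were past 2-fold higher. The name of this cluster rested on 5 of 8 markers. *Ccl3*, also a T cell receptor response gene, was among its leading genes, but *Pdcd1*, *Havcr2* and *Lag3* were not. *Fos* was above 0 in 8 of 9 clusters without passing 2-fold in any of those 8.

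Regulatory T cells (Treg-like, 28 ZsG- and 104 ZsG+ cells) were the exception in both genes. Here *Fos* stood at 337 CPM in ZsG- and 139 CPM in ZsG+ cells (-1.28, -1.78 to -0.77) and *Fosb* at 87.3 and 72.2 CPM (-0.27). With *Fos*, *Nr4a3* (137 and 63.5 CPM, -1.11), *Egr1* (81.1 and 39.0 CPM, -1.06) and *Atf3* (56.1 and 20.2 CPM, -1.47) were past 2-fold lower, on 9 to 27 UMIs a library for *Egr1* and *Atf3*, where 6.85% of genes were. The remaining lower call was *Atf3* in the CD8-Tex-like cluster led by *Slc17a6* and *Nrgn* (26.0 and 12.5 CPM, -1.06). Whether Treg-like cells differ from the other clusters in these ratios was not tested.

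**Figure D4:**
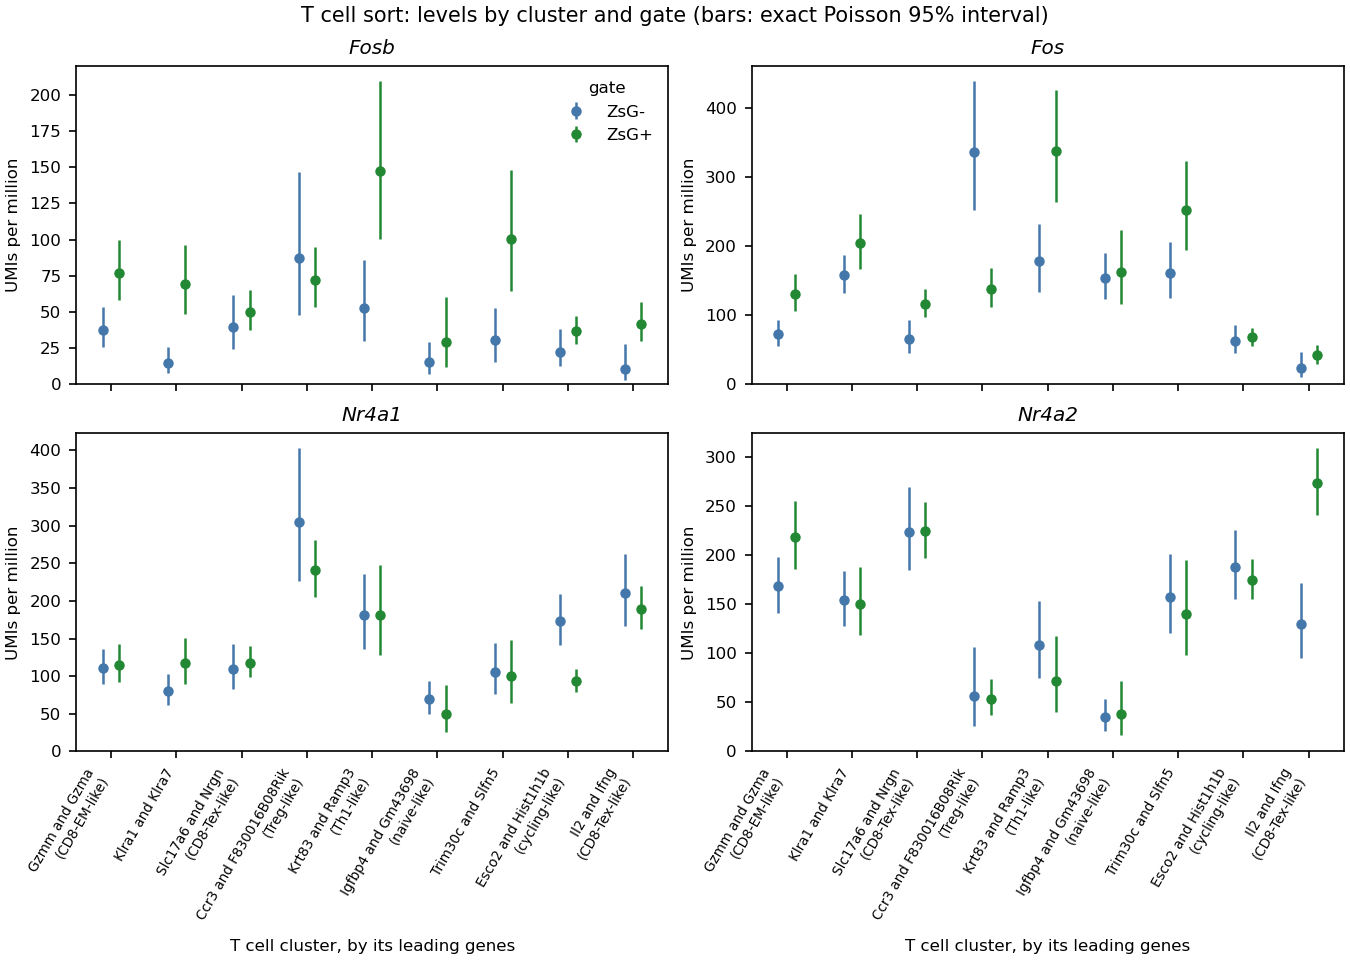
Level in CPM of *Fosb*, *Fos*, *Nr4a1* and *Nr4a2* in ZsG- (blue) and ZsG+ (green) cells of 9 T cell clusters of the T cell sort; bars are exact Poisson 95% intervals. The ZsG+ points of *Fosb* lie above the ZsG- points in 8 clusters, 1 of them with too few UMIs to be tested, and below in Treg-like cells, where *Fos* falls from 337 to 139.

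In the CD45 sort, 8 clusters had at least 20 cells in each library, and 73 of 80 ratios could be tested. Of these, 16 were past 2-fold higher and 3 lower, where 5.13% and 6.19% of all ratios in these clusters were. *Fosb* was above 0 in 8 of 8 (0.31 to 1.54, median 0.94), *Egr1* in 5 of 8 and *Junb* in 2 of 8. In the CD8-Tex-like T cells led by *Gm47015* and *Cd200* (210 and 27 cells), *Fos* (29.7 and 97.9 CPM, 1.72), *Fosb* (36.5 and 106 CPM, 1.54), *Egr1* (28.7 and 82.0 CPM, 1.52) and *Atf3* (6.08 and 18.5 CPM, 1.61) were past 2-fold higher, with 4.38% of genes so. In T cells led by *Bcat1* and *Ccl1* (196 and 40 cells), *Fosb* (39.2 and 109.8 CPM, 1.49), *Fos* (35.6 and 94.7 CPM, 1.41) and *Egr2* (17 and 12 UMIs, 2.31) were, with 2.83% of genes so. In cycling T cells led by *Mxd3* and *Depdc1b* (96 and 23 cells), *Egr1* (21.0 and 78.3 CPM, 1.90) and *Fos* (46.8 and 133 CPM, 1.51) were, with 3.85% of genes so.

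Markers of macrophages were higher in ZsG+ than in ZsG- lymphocytes. The 8 macrophage markers summed to 11.2 CPM in ZsG- and 148 CPM in ZsG+ T cells of the CD45 sort, 7.27 and 174 CPM in NK/ILC, and 18.3 and 79.3 CPM in T cells of the T cell sort. At least 1 UMI of the complement genes *C1qa*, *C1qb* or *C1qc* was seen in 3.73% of ZsG- and 75.0% of ZsG+ T cells of the CD45 sort, 1.64% and 65.2% of NK/ILC, and 5.38% and 14.0% of T cells of the T cell sort. No class could be assumed to lack the 10 genes, so these complement genes served as the measure of macrophage RNA in a lymphocyte. Their summed level in ZsG+ T cells of the CD45 sort was 1.86% of that in ZsG+ monocytes and macrophages together, and in ZsG+ NK/ILC 2.43%.

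Set against ZsG+ monocytes and macrophages of the same library, ZsG+ T cells of the CD45 sort had 1.38% of their *Apoe* and 1.27% of their *Lyz2* level, and 1.79% of their *Atf3* level. *Fos* was at 4.07%, *Egr1* at 4.37% and *Egr2* at 5.53%, whereas *Nr4a1* was at 31.2%, *Fosb* at 32.0%, *Junb* at 32.5% and *Nr4a2* at 313%. The monocyte and macrophage part, as read from the complement genes, was then subtracted from each library (the macrophage part in the T cell sort). In T cells of the CD45 sort *Egr2* then had a ratio of 2.14 and *Fosb* of 1.10, while *Egr1* was at 0.36 and *Fos* at -0.16. No *Atf3* was left in these ZsG+ T cells after subtraction. Its value of -1.93 rests on 3 counts put in for none and is not a measured ratio. In NK/ILC the values after subtraction were 1.19 for *Egr1*, 2.03 for *Egr2* and 0.96 for *Fosb*, and in the T cell sort 1.13 for *Egr2* and 0.94 for *Fosb*. The macrophages used for the T cell sort also held CD3 UMIs, and many had high doublet scores. T cells without a complement UMI were 1419 ZsG- and 29 ZsG+ cells in the CD45 sort. Among them *Egr1* had a ratio of 1.76, *Egr2* of 2.11 and *Fosb* of 1.42. All 116 ZsG+ T cells of that sort held only 21 *Egr2* UMIs, and the 29 cells at most these. In the T cell sort (615 and 619 cells) *Egr2* had 1.13 and *Fosb* 1.01. Intervals are not given for these ratios, and depth was not matched between cells with and without a complement UMI.

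**Figure D5:**
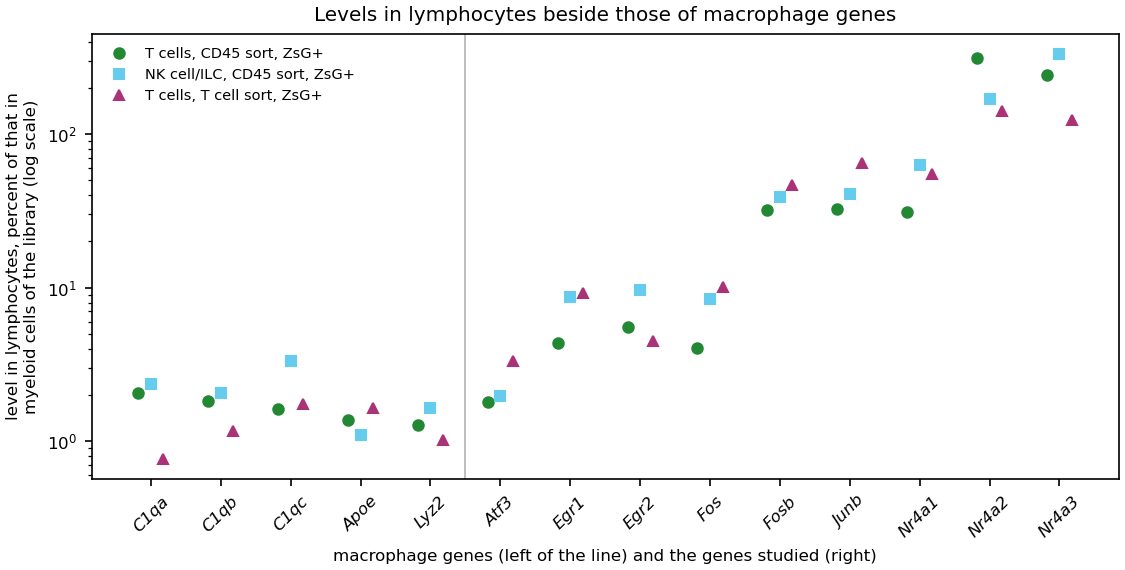
Level in ZsG+ lymphocytes as a percent of that in monocytes and macrophages of the same library (log axis), for 5 macrophage genes and 9 of the 10 genes (*Egr3* was not drawn). In the T cell sort the reference was macrophages that also held CD3 UMIs. In T cells of the CD45 sort *Atf3* lies at 1.79%, beside *Apoe* (1.38%), and *Fosb*, *Junb* and *Nr4a1* lie at 31.2% to 32.5%.

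In myeloid cells other RNA moved with the gates. The macrophage markers summed to 50.7 CPM in ZsG- and 3051 CPM in ZsG+ DCs, the T cell markers to 203 and 47.9 CPM in DCs, and the 5 pigment genes of melanoma cells to 0.90 and 23.8 CPM in monocytes and macrophages. The 10 heat shock genes summed to more CPM in ZsG+ than in ZsG- cells of all 5 classes: 3664 and 5190 CPM in monocytes and macrophages, 3638 and 5083 CPM in DCs, 3496 and 4348 CPM in NK/ILC, 5001 and 6107 CPM in T cells of the CD45 sort and 4016 and 4901 CPM in those of the T cell sort. Gene by gene they were mixed, with 5 of 10 ratios above 0 in NK/ILC and 5 of 9 in T cells of the T cell sort. Their part in the ratios of the 10 genes was not tested.

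The CD3 limit removed most other cells from the T cell sort. Before it was applied, 4 classes other than T cells had a member past 2-fold. In DC2 (25 ZsG- cells) *Egr1*, at 96.5 and 221 CPM (1.2), and *Egr3*, at 32.2 and 75.6 CPM (1.23), were higher, with 7.93% of genes so. In monocytes (28 and 63 cells) *Nr4a2*, at 199 and 92.3 CPM (-1.11), and *Egr3*, on 16 and 9 UMIs (-1.68), were lower, with 3.28% of genes so. *Nr4a2* in pDC (117 and 572 cells) was lower on 14 and 32 UMIs (-1.01, -1.95 to 0.01; 1.54% of genes), and *Nr4a1* in NK/ILC (20 and 35 cells) was higher on 13 and 36 UMIs (1.01, 0.06 to 2.05; 4.42% of genes). *Fosb* in this DC2 class had a ratio of -0.94, opposite in sign to that in DC2 of the CD45 sort.

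Other genes of the same pathways were read from lists, over the same classes, whose makeup differed between gates. Each count below stands beside the share of all genes past 2-fold higher and lower in its class. These shares were 4.04% and 1.84% in T cells of the T cell sort and 2.87% and 6.35% in those of the CD45 sort. They were 10.8% and 8.46% in NK/ILC, 10.7% and 13.9% in DCs, and 12.6% and 12.5% in monocytes and macrophages. A count near its share is not particular to the list. Of 15 other AP-1 family genes, 12 were tested in T cells of the T cell sort with none higher and 1 lower, *Maff* (15.9 and 5.86 CPM, -1.44), and 13 in T cells of the CD45 sort with 1 higher, *Batf3* (1.38 and 3.08 CPM, 1.15), and none lower. In NK/ILC 13 were tested with none higher and 1 lower, *Crem* (-1.83), in DCs 14 with 2 higher, among them *Batf2* (8.06 and 53.1 CPM, 2.72), and none lower, and in monocytes and macrophages 15 with 1 higher and 5 lower, among them *Fosl2* (364 and 116 CPM, -1.64). *Jund*, a Jun protein of resting cells, was at 870 CPM in ZsG- and 421 CPM in ZsG+ monocytes and macrophages (-1.05), 620 and 417 CPM in DCs, 707 and 633 CPM in NK/ILC, 603 and 675 CPM in T cells of the CD45 sort and 634 and 660 CPM in those of the T cell sort. *Jun* was at 894 and 809 CPM in monocytes and macrophages, 256 and 429 CPM in DCs, 73.3 and 56.3 CPM in NK/ILC, 46.4 and 56.9 CPM in T cells of the CD45 sort and 100.3 and 79.8 CPM in those of the T cell sort. *Batf*, which partners Jun proteins in T cells, was at 39.2 and 29.5 CPM, 39.7 and 31.6 CPM, 43.7 and 28.1 CPM, 109.5 and 118.5 CPM, and 86.5 and 107 CPM in the same order. In these 3 genes only *Jund* in monocytes and macrophages was past 2-fold.

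Of 27 other immediate early and feedback genes, 26 were tested in each class. In DCs 10 were higher and 1 lower, with a list median of 0.88. They included *Nab2*, a corepressor of EGR proteins (3.17 and 26.6 CPM, log2 ratio 3.07), and *Ier3* (60.8 and 452 CPM, 2.90). In monocytes and macrophages 2 were higher and 4 lower (median -0.48), in NK/ILC 3 and 3, with *Ier3* (2.42) and *Dusp6* (1.73) higher and *Rhob* on 1 ZsG+ UMI lower (-1.50, -6.81 to 0.99), and in T cells of the T cell sort none passed in either direction. In T cells of the CD45 sort *Ier3* (15.1 and 31.8 CPM, 1.07) and *Nab2* (391 and 81 UMIs, 1.05) were higher, and *Klf2*, a factor of quiescent T cells (87.9 and 22.1 CPM, -2.0), and *Btg1* (472 and 204 CPM, -1.21) were lower.

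Of 23 T cell receptor response genes, 22 were tested in T cells of the T cell sort. Of these, 7 were higher and 1 lower, beside 4.04% and 1.84% of all genes. *Xcl1* stood at 350 and 2613 CPM (2.90), *Ifng* at 654 and 2324 CPM (1.83), *Ccl3* at 465 and 1559 CPM (1.75) and *Spry1* at 8.93 and 19.6 CPM (1.13), while *Il2* was lower (45.1 and 14.8 CPM, -1.61). In T cells of the CD45 sort 1 of 22 was higher, *Tnf* (90 and 39 UMIs, 2.12), and none lower. NK/ILC had 4 of 20 higher, including *Irf4* (18 and 2 UMIs, 2.99, -0.16 to 5.06) and *Tnf* (41 and 3 UMIs, 2.39, 0.05 to 4.04), and 2 lower, including *Spry2* (-1.43). DCs had 2 of 19 higher, including *Tnf* (62.8 and 342 CPM, 2.45), and 8 lower. The lower ones included *Xcl1* (-2.60), *Tox* (-2.32), *Spry2* (-2.16) and *Cd5* (-2.11). *Cd5* is itself one of the T cell markers whose sum in DCs was given above. Monocytes and macrophages had 4 of 20 higher, led by *Rgs1* (25.7 and 574 CPM, 4.48), and 10 lower, led by *Tagap* (581 and 1281 UMIs, -2.64), *Rgs16* (-2.12) and *Spry2* (-1.82).

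Heat shock genes were past 2-fold higher in 3 of 10 in monocytes and macrophages, among them *Hspa1a* (37.8 and 245 CPM, 2.70) and *Hspa1b* (22.5 and 129 CPM, 2.52), and in 3 of 10 in DCs. None of 9 was past 2-fold in T cells of the T cell sort and none of 10 in those of the CD45 sort, and *Hspa1b* was lower in NK/ILC on 1 ZsG+ UMI (-2.24, -7.55 to 0.25). Of the 5 pigment genes, 4 were tested and higher in monocytes and macrophages, 2 in DCs and 2 in T cells of the T cell sort, and none reached 20 UMIs in the other classes.

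The patterns over classes were compared across 29 combinations of cluster and library of the CD45 sort with at least 50 cells, as Pearson's r of log2(CPM + 10). These combinations share libraries, and r is a description. Ccr7+ DCs, where *Nr4a3* was highest, had 49 ZsG+ cells and were left out. The highest *Nr4a3* level that entered r was thus 98.5 CPM, in ZsG- NK/ILC led by *Cma1* and *S1pr5*. *Atf3*, *Egr1*, *Egr2*, *Fos* and *Fosb* formed a block with r of 0.91 to 0.98 among themselves. *Nr4a2* and *Nr4a3* were alike at 0.79, while *Nr4a3* ran against *Atf3* (-0.57) and *Fos* (-0.57), and *Nr4a1* against *Nr4a2* gave -0.02.

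The 3 genes most like each member were, for *Fos*, *Zfp36* (0.97), *Ms4a6c* (0.97) and *Ifi207* (0.96), and for *Junb*, *Ier2* (0.97), *Dusp2* (0.93) and *Slfn2* (0.92). For *Fosb* they were *Aif1* (0.94), *Ccl6* (0.94) and *Cxcl2* (0.93), and for *Atf3* *Wfdc17*, *Spi1* and *Il1b* (all 0.98). *Egr1* was most like *Il1b*, *Lrrc25* and *Lyz2* (all 0.98), *Egr2* like *Tgfbi* (0.99), *Lrrc25* (0.98) and *Ralb* (0.98), and *Egr3* like *Tlr11* (0.90), *Tspan33* (0.90) and *Ece1* (0.88). *Nr4a1* was most like *Tnfrsf1a* (0.92), *Il10ra* (0.92) and *Tppp3* (0.91), *Nr4a2* like *Anxa6* (0.83), *Tpm4* (0.83) and *Acot7* (0.81), and *Nr4a3* like *Lta4h* (0.84), *Atp5h* (0.82) and *Plscr1* (0.80). The r values of the *Nr4a2*, *Nr4a3* and *Egr3* neighbours were thus lower than those of the block of 5.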

How the data were processed

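For each sort the deposited matrix gives UMI counts, whole numbers that the authors made by aligning reads to mm10 with Cell Ranger and joining both libraries of a sort with its aggr command. The submitters' processing notes name version 6.1.2, and the header of the CD45 matrix 7.0.0. Any evening out of depth by aggr is unstated here. The 10 genes, the lists and the tests were chosen with earlier results of these data known.

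Cells were kept by the limits of the study's methods: 1000 to 6000 genes and under 10% mitochondrial UMIs in the CD45 sort, and 50 to 6000 genes, under 15% mitochondrial UMIs and at least 0.055% CD3 UMIs in the T cell sort. They were clustered with Seurat 5.3.0 (R 4.3.3) on 2000 variable genes, from which the 10 genes and all lists but the pigment genes were left out, with 20 principal components and resolution 0.8 (CD45 sort) or 1.2 (T cell sort). The lineages of the CD45 sort were clustered again one by one, at resolution 0.5 for monocytes and macrophages and for NK cells and 0.8 for DCs and for T cells, and these clusters set the classes. Clusters were named from marker lists. Cell names are rebuilt here and may differ from the study's. Scrublet in scanpy 1.11.5 called 0, 0, 3 and 9 doublets, so it did not work in the CD45 sort, and doublets were kept. Clusters with markers of 2 classes stood apart as mixed.

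For each class and library, UMIs were added up and divided by the class total (CPM), with exact Poisson 95% intervals. Ratios have exact conditional intervals, shares of cells exact binomial (Clopper-Pearson) ones. Classes needed 20 cells in each library. Kept cells held 41550278 and 50427199 UMIs in the CD45 sort and 4921046 and 7593280 in the T cell sort (ZsG-, ZsG+). The ratio calculation was tried on simulated counts for T cells of the CD45 sort, with large changes set in genes with many UMIs. Genes with few UMIs, changes near 2-fold and variation between libraries were not checked this way. All 10 members are named, and of the lists at most 4 genes per direction and class with the largest ratios, plus *Jun*, *Jund* and *Batf*. Of genes alike in pattern, the 3 with the highest r are named. Gene positions come from GENCODE vM21 (GRCm38). Alternatives covered scaling (TMM from edgeR 4.0.16), filters, doublets, thinning and naming of cells.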

Additional observations from a re-analysis of the deposited data

Results flagged for a closer look

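*Nr4a3* and *Egr2* had ratios past 2-fold in opposite directions in different clusters of the CD45 sort, and the differences between clusters were not tested. For *Nr4a3* the log2 ratio of ZsG+ over ZsG- was 2.88 in DC1 and -2.44 in non-classical monocytes, on 2 UMIs in the ZsG- library of the first and 1 UMI in the ZsG+ library of the second. For *Egr2* it was 3.36 in DC1 and 2.31 in T cells led by *Bcat1* and *Ccl1*, against -1.22 in the DC2 cluster led by *Cd209a* and *Lmo1*, where 41 and 6 UMIs were counted and the interval (-2.75 to 0.02) included equality. All DC2 cells summed had a ratio of 1.06 for *Egr2*, but most ZsG+ DC2 were of other clusters than this one.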

How the results depend on the processing

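No paired analysis was possible because each group was 1 library. With 1 library a group nothing separates a gate from its library, and fewer than 30 ZsG+ NK/ILC or non-classical monocytes limit every value in them.

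The count of members past 2-fold in T cells of the T cell sort, 1 in the values reported, was 0 with a minimum of 100 UMIs, which *Egr2* did not reach, and 2 (*Egr2* and *Fosb*) both with the clusters weighted equally and, in an alternative chosen after seeing the data, without cells holding a C1q UMI. In T cells of the CD45 sort, 3 became 1 (*Atf3*) with each cell thinned to 2000 UMIs and 5 with cells named 1 by 1 from their markers. In NK/ILC, 3 became 5 with no minimum of UMIs and 5 with cells named from their markers. In monocytes and macrophages, 2 became 1 (*Nr4a1*) without the top 5% of doublet scores, with cells named from their markers, with 10 principal components, with resolution 0.5 in the clustering of all CD45 cells and without non-classical monocytes, and 0 with the clusters weighted equally. In DCs, 6 became 3 (*Egr1*, *Egr2* and *Fosb*) with a mitochondrial limit of 5%, 3 (the same genes) without pDC and 1 (*Fosb*) with the clusters weighted equally. The last also turned *Junb* in DCs from 1.00 to -0.032, and it left out pDC, Ccr7+ DCs and most ZsG+ DC2. Within the clusters of the T cell sort, 11 calls became 6 after thinning. Beyond the alternatives whose construction drops genes or cells, the cause was not tested. These counts stand without the share of all genes past 2-fold under each alternative. A change in a count may therefore not be particular to the members.

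TMM scaling moved the median of all genes from -0.0027 to 0.11 in monocytes and macrophages and from -0.11 to 0.07 in DCs, and the shares of genes past 2-fold higher and lower from 12.6% and 12.5% to 15.4% and 9.81%, and from 10.7% and 13.9% to 12.98% and 11.2%. With it *Egr2* was past 2-fold higher and *Nr4a2* no longer lower in monocytes and macrophages, 8 members were higher in DCs, and *Egr1* (T cells of the CD45 sort) and *Fosb* (NK/ILC) fell short of 2-fold. The count of 7 genes highest in monocytes or macrophages was 6 with cells named from their markers and 7 under the other alternatives run for levels. Of 589 further ratios under alternatives, 444 stayed within their counting interval and 144 moved beyond it. The remaining 1 was of a gene past 2-fold in the values reported and changed sign. Sign changes of genes not past 2-fold there were not counted apart. Of 440 levels 210 stayed within their counting interval. NK/ILC were not run with a mitochondrial limit of 5%, with 10 principal components, with clusters weighted equally or without C1q-positive cells, which left under 20 ZsG+ cells.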

Other observations

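Some cells of the CD45 sort entered no comparison. A ZsG+ cluster of 310 cells led by *Anln* and *Olfml3*, with no counterpart in the ZsG- library, had 1710 CPM of *Fos*, 850 CPM of *Egr1*, 418 CPM of *Atf3* and 29.4 CPM of *Nr4a3*, and 81.9% of its thinned cells held 3 or more of the 10 genes. Clusters with markers of a lymphocyte and a macrophage together held 90 ZsG+ cells of the NK/ILC kind and 80 of the T cell kind. *Fos* stood at 460 CPM in the first and 319 CPM in the second, *Egr1* at 139 and 206 CPM, *Atf3* at 56.7 and 82.2 CPM and *Nr4a2* at 287 and 91.7 CPM. In 39 ZsG- B cells *Nr4a1* was at 394 CPM and *Fosb* at 131 CPM, while *Nr4a2* was at 27.6 CPM and no UMI of *Atf3* or *Egr2* was counted.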
